A study of Mus musculus with 4 samples.

Results

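The E16.5 Krt4 and Krt13 spots are the 60 spots of a mouse E16.5 section in which the mucosal keratins Krt4 and Krt13 were most abundant. A spot was eligible if it lay over tissue, held at least 500 UMIs (unique molecular identifiers, each counting 1 captured RNA molecule) and held more UMIs of Krt4 plus Krt13 than of the epidermal keratins Krt1 plus Krt10. The score was the mean of log(1 + UMIs per 10000) over Krt4 and Krt13, and the 60 highest of the 3588 kept E16.5 spots were taken, out of 7435 kept spots in the series. The spots were thus chosen by the measured UMIs of Krt1, Krt4, Krt10 and Krt13, and these 4 keratins are left out of all findings. The scores ran from 3.11 to 4.98, the last spot inside the limit scored 3.106 (14 Krt4 and 25 Krt13 UMIs) and the first outside it 3.102 (34 and 60 UMIs in a deeper spot), so the limit cuts a continuous range.

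The series is a Visium study of wild-type, untreated mice, in which each spot of a slide captures the RNA of a small area that can hold several cells of different types. It has 1 section through an E16.5 embryo, 2 sections of oesophagus dissected from P0 neonates and 1 section through an E13.5 embryo, all cut from fresh frozen tissue at 8 µm. The title of the E16.5 sample names the oesophagus, but its tissue label is the whole embryo, and the animals behind the sections are not named. The score limit is that of the lowest E16.5 member, so the count of 60 at E16.5 is fixed by the choice. At this limit lay 0 kept spots at E13.5 and 263 and 188 in P0 replicates 1 and 2. These counts use the selecting keratins and describe the choice only.

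Krt4 and Krt13 are the keratin pair of the non-cornified stratified epithelia that line the mouth, pharynx, oesophagus and, in rodents, the forestomach, where they replace the Krt5 and Krt14 of the basal layer as cells move up. Epidermis uses Krt1 and Krt10 in the same position and seals its surface with a cornified envelope of loricrin, filaggrin and late cornified envelope (Lce) proteins. Around birth the fetal foregut lining, which early on carries simple keratins and some ciliated cells, completes its change to a stratified squamous epithelium.

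The 60 member spots held 1245036 UMIs in all, with a median of 18091 per spot (5770 to 50728). They were set against 3 references: the other 3528 E16.5 spots (median 26888 UMIs), the 60 E16.5 spots highest in Krt1 and Krt10 (1210337 UMIs, median 16747), and the 25% of P0 spots with the highest Krt4 and Krt13 score (91 and 66 spots, 3588686 and 2667814 UMIs). Levels are given as UMIs per 1000000 UMIs (CPM) of the summed spots with exact Poisson 95% intervals, which cover counting error only. With 1 E16.5 section there is no test of these comparisons: a gene was called higher or lower at a 2-fold difference (pseudocount 1 CPM, at least 10 CPM on either side), and against P0 only where both P0 sections gave it. Mitochondrial genes held 1.65% of the UMIs in member spots, against 3.27% in the Krt1 and Krt10 spots, 4.37% in the other E16.5 spots and 6.10% and 6.16% in the P0 spots.

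The member spots formed 7 connected groups on the spot grid, 5 if spots 2 steps apart are joined: a group of 26 spots (rows 44 to 49, columns 75 to 92), a group of 21 (rows 50 to 55, columns 41 to 70), a group of 6 (rows 61 to 66, columns 38 to 41), 3 small groups of 6 spots together (rows 69 to 75, columns 34 to 37) and 1 single spot (row 37, column 105). Apart from the single spot they follow one bent line across the section, while the Krt1 and Krt10 spots follow the upper edge of the tissue, and none of these touched a member.

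**Figure D1:**
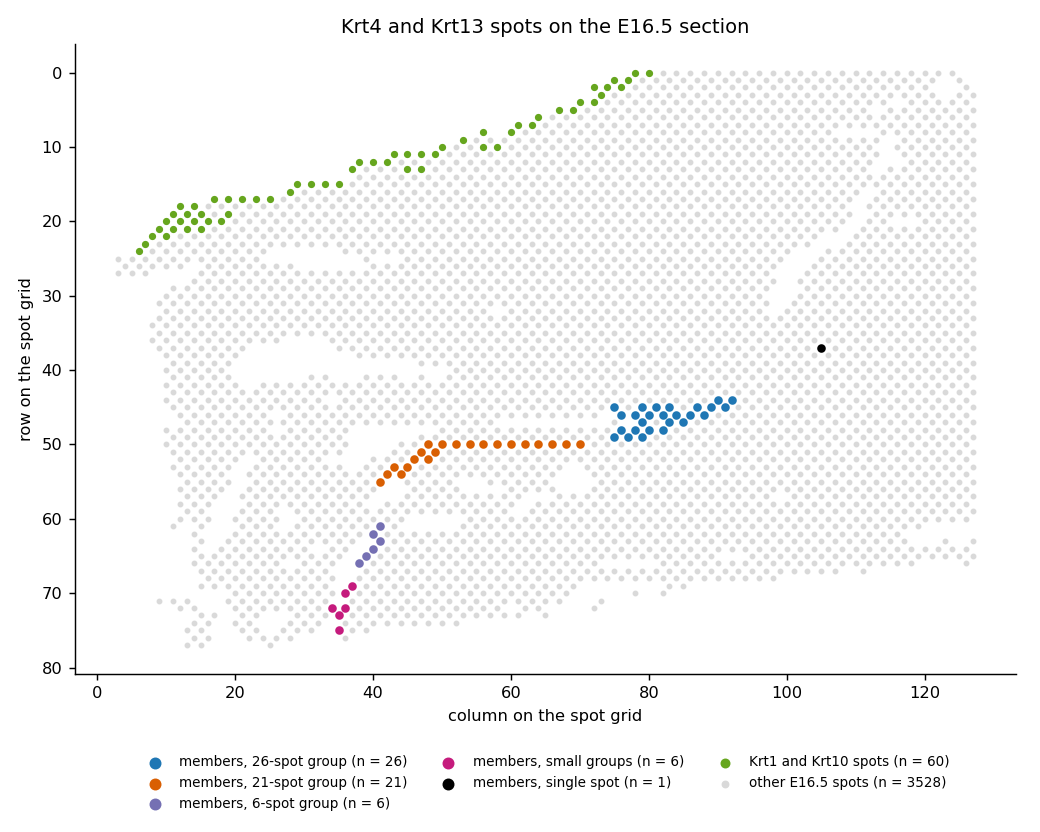
Spots of the E16.5 section by row and column of the spot grid, with the 60 members coloured by connected group, the 60 Krt1 and Krt10 spots in green and all other spots in grey. The members run from the 26-spot group through the 21-spot and 6-spot groups to the small groups, and the Krt1 and Krt10 spots lie on the tissue edge.

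Markers of stratified epithelium other than the selecting keratins were high in the members. Krt15, a keratin of basal cells in internal epithelia, was at 5551 CPM (95% interval 5421 to 5683) in member spots and 125 CPM in the other E16.5 spots. Single member spots ranged from 2390 to 10760 CPM of Krt15 around a median of 5074, so every member carried it. Trp63, the transcription factor that sets up stratified epithelia, was at 69.9 CPM in members and 6.28 CPM in the rest. Of the 15 genes of the basal epithelium list 13 were at least 2-fold higher in members and 0 lower, with a median log2 ratio of 3.25, and all 9 measurable simple epithelium genes (Krt7, Krt8, Krt19, Epcam and others) were higher, with a median of 3.07. Over all 11374 genes compared, 1251 (11%) were higher and 1364 (12%) lower, and the median was 0.12. In bulk sums such as these, fewer cells of a type and less RNA per cell cannot be told apart.

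The genes that set members furthest above the rest of the section were those of mucosal differentiation and barrier. Krt6a, a keratin of oral and wound-activated epithelium, was at 1027 CPM (972 to 1085) in members and 9.71 CPM in the other spots, a 106-fold difference, and had UMIs in 58 of 60 members. Psca, a Ly6-type surface protein of mucosal epithelia, was at 1443 CPM against 16.6 CPM, with UMIs in 59 of 60 members. Upk3bl, a uroplakin-like membrane protein, was at 810 CPM against 17.1 CPM and was present in every member (70.7 to 1903 CPM).

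Dsg3, the desmosomal cadherin of mucosa, was at 116 CPM in members against 1.59 CPM in the rest. The transglutaminase Tgm3 was at 149 against 1.88 CPM, the airway-type serine protease Tmprss11a at 129 against 1.64 CPM, the arginase Arg1 at 198 against 3.20 CPM and the calmodulin-like Calml3 at 273 against 5.01 CPM. These 5 genes had UMIs in 36 to 53 of the 60 members. The suprabasal mucosal list had 24 of 26 measurable genes higher and 0 lower (median log2 ratio 4.33), and of the remaining genes Fabp5 was at 608 CPM in members and 694 CPM in the rest.

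Junction genes and transcription factors followed the same direction. Of 25 measurable transcription factors of stratified epithelium 24 were higher in members (median log2 ratio 3.07), among them Pitx1 (238 against 8.58 CPM), Foxe1 (102 against 3.71 CPM) and Pax9 (65.1 against 4.76 CPM), factors of oral and pharyngeal development, and Sox2 (98.0 against 24.8 CPM), a foregut factor. Of 14 desmosome and adherens junction genes 12 were higher and 1 lower, and of 14 claudin and tight junction genes 11 were higher and 0 lower. Of 17 measurable Hox genes, which pattern the trunk, 0 were higher and 12 lower (median log2 ratio -2.03). The spots around the members shared this low level. The Hox list was at 188 CPM in members, 191, 166 and 183 CPM at 1, 2 and 3 grid steps, and 447 CPM at 4 or more. Hoxa3, a gene of the pharyngeal arches, was at 30.5 CPM in members and 15.4 CPM in the rest. Genes furthest below the rest belonged to other organs in the section: Myh6, the cardiac myosin, was at 11.2 CPM in members and 273 CPM in the rest, Nppa at 8.84 and 190 CPM, and Car3 at 165 and 2004 CPM.

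Set against 200 other epithelial E16.5 spots in place of all other spots, 407 genes were higher and 558 lower, against 1251 and 1364. These 200 spots were the non-member spots highest in the basal and simple epithelium lists.

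**Figure D2:**
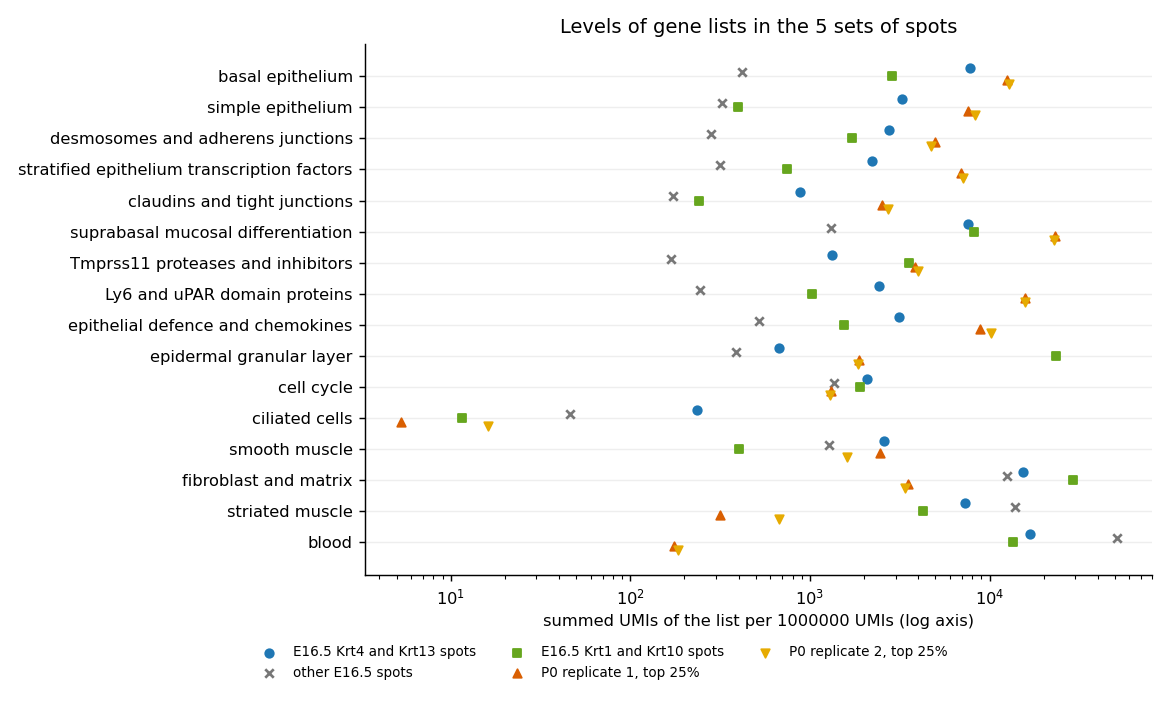
Summed UMIs of 16 gene lists per 1000000 UMIs on a log axis, for the members (blue circles), the other E16.5 spots, the Krt1 and Krt10 spots and the top 25% spots of each P0 section. Members exceed the other E16.5 spots in every epithelial list and lie below both P0 sections in the basal, simple, junction and suprabasal lists, while blood, striated muscle and matrix lists are higher in members than at P0.

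The members and the Krt1 and Krt10 spots are both stratified epithelium of 1 section, and the envelope genes, simple epithelium genes and transcription factors differed between them. Of 10916 genes compared, 1479 (13.55%) were higher and 706 (6.468%) lower in members, and the median log2 ratio was 0.19; TMM factors gave 1000 higher and 916 lower. All 18 measurable genes of the epidermal granular layer list were lower in members, with a median log2 ratio of -6.93. Flg, which encodes the filaggrin precursor, was at 6.43 CPM (2.77 to 12.7) in members and 1733 CPM in the Krt1 and Krt10 spots, and the related Hrnr at 3.21 and 1803 CPM. Loricrin (Lor) was at 102 CPM in members and 7973 CPM in the Krt1 and Krt10 spots. Flg and Hrnr passed the limit of 10 CPM only through the Krt1 and Krt10 spots. These spots were ranked by epidermal keratins, so lower granular layer genes in members were in part built in by the choice.

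On the other side, all 9 measurable simple epithelium genes were higher in members, with a median log2 ratio of 4.40. Krt8 was at 687 CPM in members and 15.7 CPM in the Krt1 and Krt10 spots, and Krt19 at 912 and 42.1 CPM. Cldn7, a claudin of simple and mucosal epithelia, was at 145 CPM against 0.826 CPM, which is 1 UMI. Cyp2f2, a cytochrome P450 known from club cells of the mouse airway, was at 1066 CPM against 5.78 CPM and had UMIs in all 60 members.

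Of 26 transcription factors 16 were higher in members and 1 lower. Pitx1 had 296 UMIs in members and 1 UMI in the Krt1 and Krt10 spots (238 against 0.826 CPM), and Pax9 had 81 UMIs against 0. Sim2, a bHLH-PAS factor, had 124 UMIs in 49 members and 0 in the Krt1 and Krt10 spots, and the lipoxygenase Alox15 161 UMIs against 0. The basal keratin Krt14 went the other way, at 301 CPM in members and 946 CPM in the Krt1 and Krt10 spots, while Krt5 was at 749 and 894 CPM and Krt15 at 5551 and 575 CPM. The suprabasal mucosal list was split: 12 of 27 genes were higher in members and 6 lower, among the lower ones Krtdap (239 against 1654 CPM) and Crct1 (94.0 against 1131 CPM).

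The 5 groups of members were not alike. The basal epithelium list was at 10550 CPM in the small groups, 9499 in the 6-spot group, 8118 in the 21-spot group, 6375 in the 26-spot group and 3565 in the single spot. Cornified envelope precursors spread much more widely, at 10584 CPM in the small groups, 2339 in the 6-spot group, 508 in the 21-spot group and 367 in the 26-spot group. The 6 spots of the small groups ranged from 3517 to 20991 CPM and those of the 26-spot group from 0 to 857 CPM. For envelope precursors these ranges did not overlap. For the basal epithelium list they did, at 8354 to 13308 CPM against 3453 to 11185 CPM. The share of all lists without overlap was not counted. Spots of the same section are not replicates, so the difference between groups was not tested. Granular layer genes took the same order (4003, 1042, 397 and 242 CPM): Lor was at 855 CPM in the small groups against 38.1 to 50.4 CPM in the 3 larger groups. Flg had no UMI in the small groups or the 6-spot group. The small groups also held the highest Krt4 and Krt13 scores (3.92 to 4.98, against 3.11 to 4.35 in the 26-spot group), and the part of the score in this order was not tested.

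Genes of motile cilia were highest in the 21-spot group. Rsph1, a radial spoke protein, was at 223 CPM there, 65.5 CPM in the 6-spot group, 4.24 CPM in the 26-spot group and 0 in the small groups. Foxj1, the master factor of motile cilia, was at 126 CPM in the 21-spot group. The 5 ciliated cell genes summed to 459 CPM in the 21-spot group (0 to 1720 CPM per spot) and 40.3 CPM in the 26-spot group (0 to 191), so single spots of the groups overlapped. Spots near the members carried these genes too: they were at 235 CPM over all members, 96.9 CPM at 1 grid step, 267 CPM at 2 and 234 CPM at 3 steps. The wider list of airway and ciliated epithelium was at 468 CPM in members and 1222, 3188 and 2170 CPM at 1, 2 and 3 steps, and the part of this neighbouring RNA in the ciliated genes of the members was not tested.

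Smooth muscle genes were high in the 26-spot group and the single spot. They were at 4817 CPM (2273 to 7984 per spot) in the 26-spot group and 6299 CPM in the single spot, against 1329 in the 21-spot group, 478 in the 6-spot group and 696 in the small groups, and Actg2, a smooth muscle actin of hollow organs, was at 612 CPM against 77.5, 13.1 and 34.2 CPM. Its cartilage collagen Col2a1, at 1751 CPM over the group, reached 31075 CPM in 1 spot. Striated muscle genes ran the other way, at 4326 CPM in the 26-spot group, 9953 in the 21-spot group and 11348 in the small groups. The single spot held Scgb3a2, a secretoglobin of airway epithelium, at 9091 CPM.

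**Figure D3:**
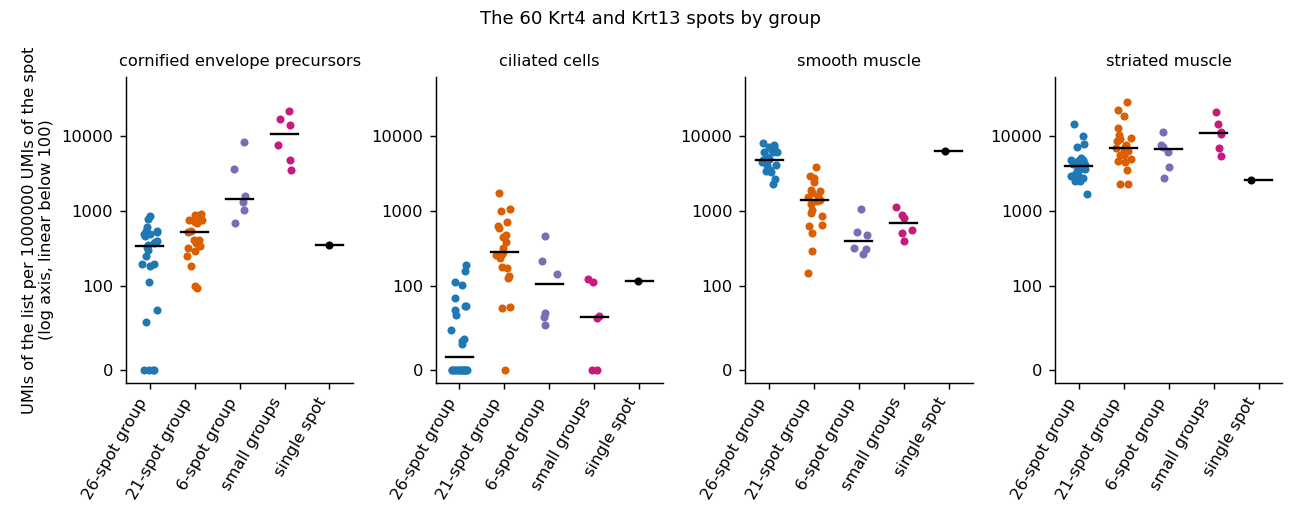
UMIs of 4 gene lists per 1000000 UMIs of each member spot, by group, with a bar at the group median, on a log axis that is linear below 100. Envelope precursors are highest in the small groups, ciliated cell genes in the 21-spot group and smooth muscle genes in the 26-spot group and the single spot.

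Genes of 4 barrier and oxidase families differed between the members and 1 or both of the other Krt-defined sets. The Lce and Sprr genes encode small proteins that are cross-linked into the envelope of surface cells and lie in 1 cluster on chromosome 3. All 6 Lce3 genes had UMIs in members, 458 in all or 368 CPM, against 37.2 CPM in the Krt1 and Krt10 spots and 1.11 and 0.375 CPM in the P0 spots. Lce3f was at 154 CPM (133 to 178) in members with 192 UMIs in 10 spots, 4.13 CPM in the Krt1 and Krt10 spots and 0 UMIs in either P0 section. Lce3a was at 119 CPM in 8 members, 2.48 CPM in the Krt1 and Krt10 spots and 0.836 and 0.375 CPM at P0. Both rest on the small groups, where Lce3f was at 2099 CPM and Lce3a at 1528 CPM; the 26-spot group had 4.24 and 0 CPM, and with the 26-spot group alone the log2 ratio of Lce3a over the rest is -0.91.

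The 14 Lce1 genes summed to 33.7 CPM (42 UMIs) in members, 9675 CPM in the Krt1 and Krt10 spots and 0 at P0. The 10 Sprr2 genes had 1 UMI in members (0.803 CPM), 122 CPM in the Krt1 and Krt10 spots and 347 and 303 CPM at P0. Sprr2d had 0 UMIs in members, 13.2 CPM in the Krt1 and Krt10 spots and 105 and 83.2 CPM at P0, so at the floor of 3 counts in the members it was at least 43.5-fold and 34.5-fold lower than in the P0 sections. Sprr2f had 0 UMIs in all 3528 other E16.5 spots as well and 70.2 and 60.3 CPM at P0. Not every gene followed its family: Sprr2h was at 0 UMIs in members, 56.2 CPM in the Krt1 and Krt10 spots and 6.69 and 2.62 CPM at P0, and Sprr2i and Sprr2k were likewise highest in the Krt1 and Krt10 spots. Lce3c was at 38.6 CPM in members and 29.7 CPM in the Krt1 and Krt10 spots. Sprr2 and Lce genes are close copies, and reads that map to several of them may have been assigned differently, so levels of single genes within a family are less certain than the family sums.

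The promoters of 3 gene pairs are printed because each pair was highest in a different set of spots, and they were chosen after these values were seen: Lce3a and Lce3f the members, Sprr2d and Sprr2f the P0 spots, and Lce1g and Lce1i the Krt1 and Krt10 spots. They are RefSeq sequences of build GRCm38.p6, from 250 bases before to 50 after the gene start, at chr3:92926181-92926480 (minus strand), chr3:92991967-92992266 (plus), chr3:92338890-92339189 (plus), chr3:92364937-92365236 (plus), chr3:92752289-92752588 (minus) and chr3:92778850-92779149 (minus). Capitals mark matches to TGANTCA, the AP-1 motif, to TATAAA, the TATA box, and to ATAAAA, a shifted form of it that was added after the sequences were seen.
Lce3a: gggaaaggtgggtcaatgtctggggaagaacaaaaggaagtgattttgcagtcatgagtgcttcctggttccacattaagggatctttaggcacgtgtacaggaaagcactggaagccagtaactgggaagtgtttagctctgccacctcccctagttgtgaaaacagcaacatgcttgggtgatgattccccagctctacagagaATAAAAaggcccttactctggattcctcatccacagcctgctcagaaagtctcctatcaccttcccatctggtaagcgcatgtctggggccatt
Lce3f: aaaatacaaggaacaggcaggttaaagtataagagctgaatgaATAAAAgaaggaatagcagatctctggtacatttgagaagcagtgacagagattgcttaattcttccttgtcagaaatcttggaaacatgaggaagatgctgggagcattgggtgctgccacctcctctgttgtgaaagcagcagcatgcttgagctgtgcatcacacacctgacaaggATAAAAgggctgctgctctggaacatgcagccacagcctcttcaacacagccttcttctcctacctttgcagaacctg
Sprr2d: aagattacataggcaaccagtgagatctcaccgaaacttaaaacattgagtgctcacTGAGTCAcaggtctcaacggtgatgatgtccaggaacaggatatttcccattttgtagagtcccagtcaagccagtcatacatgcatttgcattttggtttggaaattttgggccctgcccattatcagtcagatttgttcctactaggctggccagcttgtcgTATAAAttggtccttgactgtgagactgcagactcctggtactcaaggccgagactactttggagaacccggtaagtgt
Sprr2f: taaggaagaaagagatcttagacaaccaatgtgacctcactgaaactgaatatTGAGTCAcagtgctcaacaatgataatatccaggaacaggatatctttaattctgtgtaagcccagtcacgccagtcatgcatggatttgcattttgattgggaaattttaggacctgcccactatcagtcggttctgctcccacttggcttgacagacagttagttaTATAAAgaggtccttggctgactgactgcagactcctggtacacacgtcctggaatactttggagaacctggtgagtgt
Lce1g: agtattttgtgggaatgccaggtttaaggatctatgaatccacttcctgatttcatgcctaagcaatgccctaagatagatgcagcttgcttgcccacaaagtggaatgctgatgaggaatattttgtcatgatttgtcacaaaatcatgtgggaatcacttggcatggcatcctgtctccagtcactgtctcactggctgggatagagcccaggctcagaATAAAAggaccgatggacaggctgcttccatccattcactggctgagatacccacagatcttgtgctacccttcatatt
Lce1i: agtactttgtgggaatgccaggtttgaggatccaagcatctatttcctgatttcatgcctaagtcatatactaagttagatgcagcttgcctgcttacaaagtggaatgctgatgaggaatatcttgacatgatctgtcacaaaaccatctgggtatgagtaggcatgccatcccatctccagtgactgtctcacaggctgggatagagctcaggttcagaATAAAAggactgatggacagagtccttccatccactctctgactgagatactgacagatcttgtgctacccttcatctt
Within a pair, a global alignment gave 86.0% identical bases for Lce1g and Lce1i, 78.7% for Sprr2d and Sprr2f and 70.8% for Lce3a and Lce3f, against 60.4% to 64.9% for 4 pairs across families. Some pairs within a family were at or near that level: Sprr2d and Sprr2a3 shared 63.5% and Lce1a1 and Lce1m 65.6%. Sprr2d and Sprr2f share TGAGTCA at 193 and 197 bases before the start and TATAAA at 29 bases before it. ATAAAA begins 44 bases before the start in Lce3a, 207 and 28 in Lce3f and 29 in Lce1g and Lce1i. Whether any of these matches acts as a TATA box was not tested. The motif TGANTCA, searched on both strands, lies in 7 of 10 Sprr2 promoters, 0 of 6 Lce3 and 0 of 13 Lce1 promoters, and in 7.81% of all 32851 promoters. TATAAA lies in 7 of 10 Sprr2, 1 of 6 Lce3 and 2 of 13 Lce1 promoters and in 13.6% of all, and ATAAAA, which overlaps TATAAA where an A follows, in 3 of 10, 6 of 6 and 12 of 13 and in 18.5% of all.

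The dual oxidases, which make hydrogen peroxide at mucosal surfaces, split by pair. Duox2 and its maturation factor Duoxa2 had 0 UMIs in members and in the Krt1 and Krt10 spots, whereas P0 replicates 1 and 2 had 137 and 148 CPM of Duox2 and 186 and 189 CPM of Duoxa2. At the floor of 3 counts Duoxa2 was at least 77.4-fold and 78.4-fold lower in members than in the P0 sections. Duox1 and Duoxa1 were present in members, at 15.3 CPM (14 of 60 spots) and 28.9 CPM (25 spots), against 36.2 and 34.9 CPM and 38.7 and 53.6 CPM at P0. Each oxidase and its factor face away from each other on chromosome 2. By the starts used for the promoters, 673 bases lie between Duox2 and Duoxa2 and 1942 between Duox1 and Duoxa1. The annotated gene spans differ from these starts. Duox2 reaches to 122298740 and Duoxa2 begins at 122298900, while Duoxa1 (to 122313763) overlaps Duox1 (from 122313010).

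**Figure D4:**
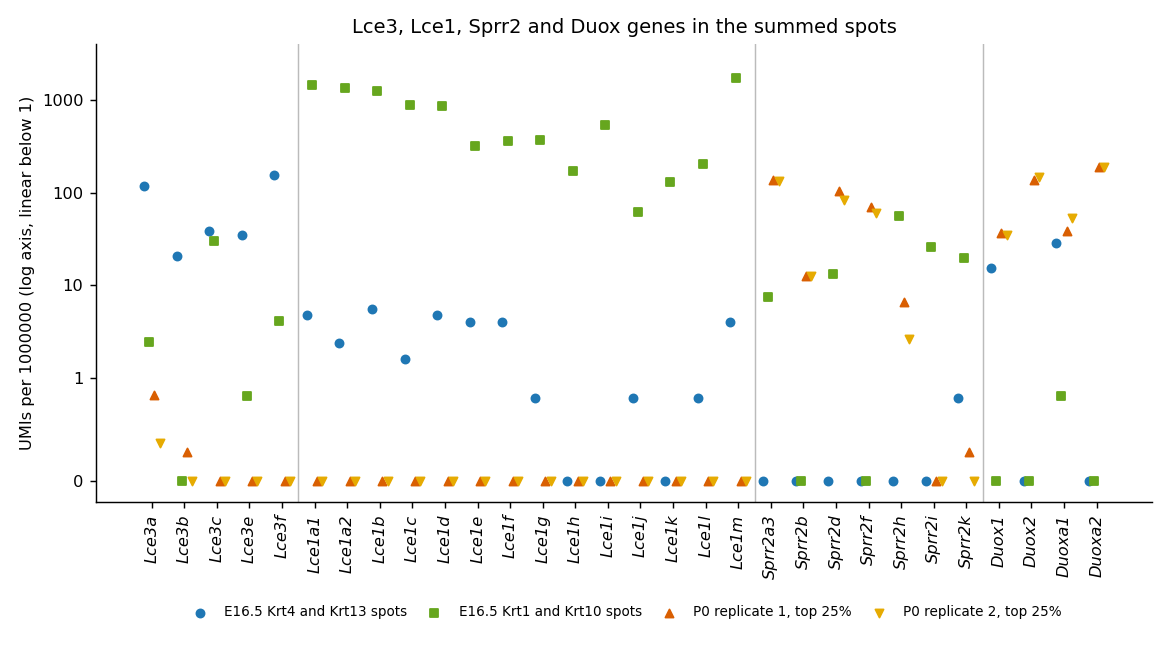
CPM of the Lce3, Lce1, Sprr2 and Duox genes that reach 10 CPM in any set, on a log axis that is linear below 1, for the members (blue circles), the Krt1 and Krt10 spots and the P0 top 25% spots. Lce3 genes are highest in members (Lce3c by little over the Krt1 and Krt10 spots), Lce1 genes in the Krt1 and Krt10 spots, and Duox2 and Duoxa2 lie at 0 in both E16.5 sets.

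The members were next set against the P0 spots highest in the same score, which are a larger share of their sections and score higher. Suprabasal, claudin and defence genes were mostly lower in members than in these P0 spots, and basal genes were lower by less. Of 10841 genes, 2319 (21.4%) were higher and 790 (7.29%) lower in members than in both P0 sections, and the median log2 ratio was 0.39. With TMM factors in place of total UMIs the counts turn to 1205 higher and 1553 lower, with a median of -0.15. The 2 sides do not hold equal amounts of epithelium: the score was at least 4.93 in the P0 spots and 3.11 to 4.98 in members, and the basal epithelium list was at 7736 CPM in members against 12490 and 12814 CPM at P0. In turn members held more RNA of several other tissues. All 14 fibroblast and matrix genes, all 13 striated muscle genes, all 9 endothelial genes and all 7 measurable neuron genes were higher in members. The blood list was at 16710 CPM in members against 176 and 184 CPM, and genes of other organs (Smgc of the salivary gland, 62.6 CPM against 0 UMIs at P0) were also present. The part of this mixture in each stage difference was not tested for single genes. Scaled to the UMIs of the desmosome and adherens junction list (2750 CPM in members, 4967 and 4700 CPM at P0), the median log2 ratio over all genes becomes 1.19. On this scale 5750 of 10480 genes were higher in members and 218 lower. Smooth muscle did not stand out there: 4 of 10 genes were higher and 0 lower, with a median of 1.09.

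Of 15 basal epithelium genes 0 were higher and 2 lower in members (median log2 ratio -0.42). Krt15 was at 5551 CPM in members and 9387 and 9777 CPM at P0, a log2 ratio of -0.79, and 0.03 on the desmosome scale. Krt5 was at 749 CPM in members and 1069 and 934 CPM at P0, Trp63 at 69.9 and 93.1 and 97.5 CPM, and Krt14 at 301 and 203 and 238 CPM. The 2 lower genes were the hemidesmosome collagen Col17a1 (95.6 against 274 and 293 CPM) and Klf5 (226 against 530 and 533 CPM). With the desmosome scale 3 of the 15 were higher and 0 lower (median 0.40, below the 1.19 over all genes).

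Differentiation, surface and defence genes were lower. Of 27 suprabasal genes 0 were higher and 18 lower in members (median log2 ratio -1.41), and on the desmosome scale 1 was higher and 7 lower (median -0.60). Of 14 claudin and tight junction genes 10 were lower and 0 higher, and on the desmosome scale 2 were lower and 0 higher. Of 16 defence and chemokine genes 10 were lower and 3 higher (median -2.41), and on the desmosome scale 9 of 15 were lower and 4 higher (median -1.81).

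Psca was at 1443 CPM in members and 13268 and 13305 CPM at P0. Hopx, a homeodomain protein of differentiating epithelium, was at 351 CPM in members and 3478 and 3512 CPM at P0, and Ecm1 at 269 and 2087 and 2140 CPM. On the desmosome scale the log2 ratios of these 3 genes were -2.39, -2.50 and -2.16. Lactoferrin (Ltf), an iron-binding defence protein, was at 82.7 CPM in 34 members and at 2197 and 2555 CPM at P0, and 366.8 CPM in the 6-spot group was its highest group value. Ppbp, a platelet-type chemokine, had 3 UMIs in members (2.41 CPM, 0.497 to 7.04) against 707 and 812 CPM, a ratio to P0 replicate 1 of 0.00341 (0.000703 to 0.00998). The chloride channel regulator Clca3b was at 7.23 CPM against 903 and 1009 CPM, and the amino acid transporter Slc6a14 at 16.1 against 529 and 678 CPM. Not all defence genes were lower: Wfdc2 was at 358 CPM in members against 133 and 153 CPM.

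Some genes were higher in members. Of 22 cell cycle genes 8 were higher and 1 lower (median log2 ratio 0.98), among them Mki67 at 129 CPM against 45.7 and 43.5 CPM and the survivin gene Birc5 at 104 against 32.6 and 27.4 CPM. The 1 lower was the inhibitor Cdkn2b, at 21.7 against 54.3 and 54.4 CPM. On the desmosome scale 17 of 22 were higher and 0 lower (median 1.75, against 1.19 over all genes). These genes are not limited to epithelium, and the other E16.5 spots had 85.1 CPM of Mki67. Spots near the members matched them: the cell cycle list was at 2073 CPM in members and 2345, 2075 and 1978 CPM at 1, 2 and 3 grid steps. At 4 or more steps it was at 1305 CPM. Tbx1, a pharyngeal T-box factor, was at 66.7 CPM in members against 15.9 and 25.5 CPM, and Rsph1 at 102 against 2.51 and 5.25 CPM. Tmprss11a was at 129 CPM against 80.3 and 141 CPM, inside the span of the P0 sections, while 14 of the 19 genes of its list were lower in members and 1, Cstdc5, higher. On the desmosome scale Tmprss11a had a log2 ratio of 1.08, and 4 of 18 genes of the list were lower and 1 higher.

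Within the P0 sections a test was possible: the top 25% spots and the other spots were summed per section and compared with edgeR's quasi-likelihood test, with the section as a block. Of 12743 genes 3380 (26.5%) rose and 3466 (27.2%) fell in the top spots. Of the 1251 genes higher in E16.5 members than in the rest, 1107 were tested at P0, where 792 rose, 126 fell and 189 passed in neither direction. Of the 1364 lower genes 832 were tested, and 102 rose and 480 fell. The 2 kinds of call are unlike: those at E16.5 used a 2-fold limit on total UMIs. Those at P0 used TMM factors and an adjusted p below 0.05 with no fold limit. The P0 top spots were ranked by Krt4 and Krt13, so they hold more epithelium by choice. All 13 striated muscle, all 10 smooth muscle and all 14 fibroblast and matrix genes tested there fell. A rise of epithelial genes, also among the 1107 above, was therefore built in and is no separate support for the E16.5 values. It was seen for 26 of 27 suprabasal genes, 20 of 20 of the Tmprss11 list, 22 of 28 transcription factors and 11 of 15 basal genes. Psca rose by 2.14 ± 0.06 (SE) on the log2 scale (adjusted p = 1.75e-283), Krt6a by 1.97 ± 0.07 (adjusted p = 2.03e-186) and Pitx1 by 0.64 ± 0.08 (adjusted p = 1.24e-15). Duox2 rose by 2.33 ± 0.10 (adjusted p = 6.58e-114). These SEs and p-values do not measure a gene's own spread between the 2 sections. Without TMM factors the log2 ratios of Psca in the 2 sections were 1.73 and 2.09. The members-over-P0 comparison uses the same P0 top spots, so its calls are not set against this test.

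Signals and their targets were read by distance from the members, in rings of 1, 2, 3 and at least 4 grid steps (100, 113, 115 and 3200 spots). The ligand genes Wnt4, Wnt10a and Shh were highest in the members. Wnt4 was at 122 CPM (103 to 143) there, 31.7 CPM at 1 step and 12.01 CPM at 4 or more. Wnt10a was at 43.4, 11.7, 7.19, 3.26 and 1.02 CPM from the members outward. Shh, a ligand of the foregut and oral epithelium, had 13 UMIs in members (10.4 CPM, 5.56 to 17.9) and 2 UMIs in each of the 3 rings around them (0.815 to 0.974 CPM), against 3.40 CPM farther away.

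Its receptor and target Ptch1 was at 58.6 CPM (46.0 to 73.7) in members and 28.7 CPM (21.9 to 37.1) at 1 step, and 33.0 CPM at 4 or more. Foxf1, a Hedgehog-responsive factor of foregut mesenchyme, was at 24.1 CPM in members and 25.3 CPM at 1 step, and 3.89 CPM at 4 or more. Barx1, a factor of stomach and jaw mesenchyme, was at 26.5, 17.5, 23.3 and 15.9 CPM over the members and the 3 rings and at 2.14 CPM farther out. Des, the intermediate filament of muscle, was at 308 CPM in members and 1053 CPM at 1 step, and 314 CPM at 4 or more. Retinol-binding Rbp2 was at 77.1 CPM in members and 9.25 CPM at 1 step, and Fgfr3, an FGF receptor, at 157 and 40.9 CPM.

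Whole pathway lists did not all peak in the members. The Hedgehog list was at 488 CPM in members and 571, 522 and 480 CPM at 1, 2 and 3 steps, and the BMP list at 754 CPM against 768, 761 and 808 CPM, while the FGF list was at 630 CPM against 466, 410 and 402 CPM. Of the listed pathway genes measurable against the rest, where 11% of all genes were higher and 12% lower, 6 of 12 Hedgehog genes were higher in members and 0 lower, 12 of 23 Wnt genes higher and 1 lower, 5 of 10 FGF genes higher and 0 lower, 6 of 18 BMP genes higher and 1 lower and 4 of 13 Notch genes higher and 1 lower. Lgr5, the Wnt-associated receptor that the study is about, had 13 UMIs in members (10.4 CPM, 5.56 to 17.9), 6.33 CPM (3.37 to 10.8) at 1 step and 3.40 CPM at 4 or more, and the P0 spots had 6.69 and 10.1 CPM. Its intervals in members and at 1 step overlap.

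**Figure D5:**
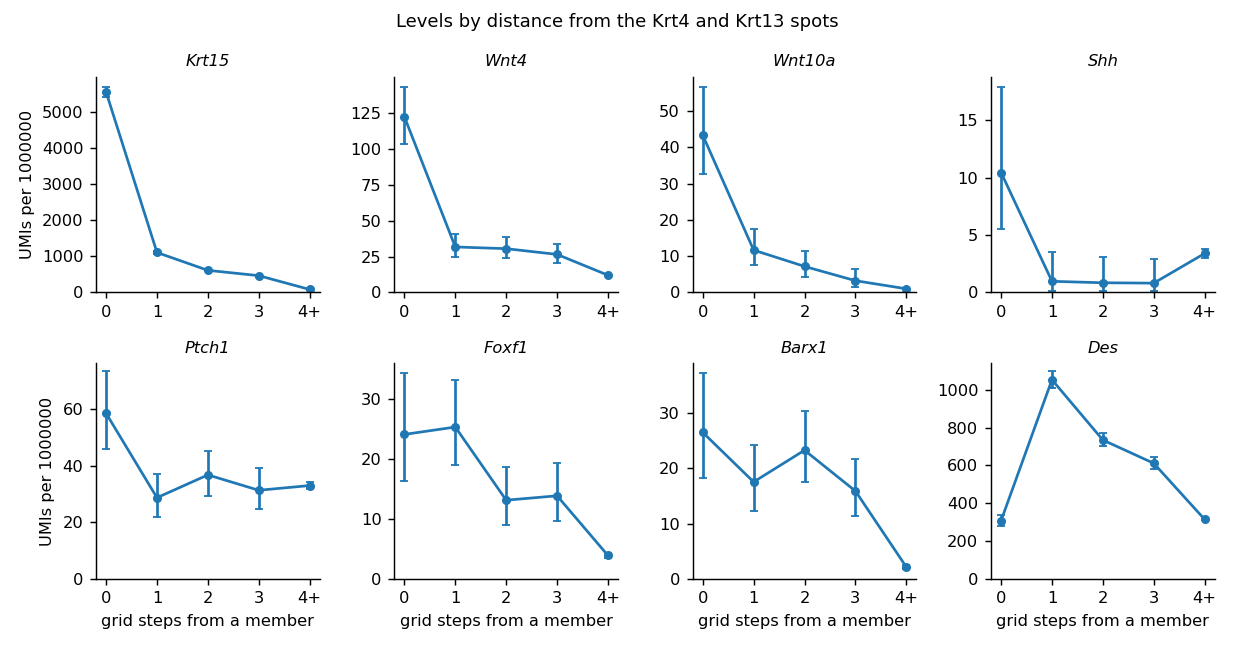
CPM of 8 genes by distance in grid steps from the nearest member (0 is the members, 4+ all spots at 4 or more steps), with exact Poisson 95% intervals. Krt15, Wnt4, Wnt10a and Shh are highest in members, Des at 1 step, and Foxf1 and Barx1 stay above the distant spots through 3 steps.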

How the data were processed

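Each section was deposited as a matrix of unnormalized UMI counts over 32285 genes with the grid position of every spot. It was made with Space Ranger 2.0.0, as the headers state, and per the submitters' processing notes the build was mm10. The values were checked to be whole numbers. Aligner settings are not given in the sources used here.

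Spots over tissue with at least 500 UMIs were kept: 3220 at E13.5, 3588 at E16.5, and 363 and 264 in the P0 replicates, with totals of 98645152, 105835664, 10261248 and 7357333 UMIs. Barcodes name slide positions, so the 350 and 240 that the P0 sections share with E16.5 are not shared cells. Spots were not tested for doublets. Members, gene lists and tests were chosen with earlier results of these data known; all 42 lists are from general knowledge of the cell types, and the 5 ciliated cell genes are a subset of 1 list. Spots were summed per set, and levels taken as CPM. Named genes were those with the 12 highest and 6 lowest log2 ratios over the other E16.5 spots, the 8 highest and 8 lowest over the Krt1 and Krt10 spots and the 10 highest and 10 lowest over P0, all with at least 50 CPM in the higher sum; list genes with at least 50 CPM in members, a 4-fold difference or a defining role were added. The Lce, Sprr2 and Duox families were grouped after their values were seen. The P0 fit used edgeR 4.0.16 in R 4.3.3 (TMM, filterByExpr, section as block, Benjamini-Hochberg adjusted p below 0.05) on 4 sums with 1 residual degree of freedom. The prior degrees of freedom were estimated as infinite, so each gene's variance comes from all genes. A p-value therefore does not measure that gene's own spread between the 2 sections. The P0 fit and the ratios were also run on simulated counts with known changes. Those counts lack the choice of spots by keratins, so they cannot show whether the calls here are sound. DESeq2 1.42.0 was an alternative. RefSeq promoters were matched by symbol.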

Additional observations from a re-analysis of the deposited data

Results flagged for a closer look

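Myl7, the atrial myosin light chain, moved in opposite directions at the 2 stages. Its log2 ratio of members over the other E16.5 spots was -3.66 (65.1 against 834 CPM), whereas the top 25% of P0 spots exceeded the other P0 spots by 1.37 and 1.98 in replicates 1 and 2. The E16.5 section holds other tissues that the dissected P0 oesophagus does not, among them spots with the cardiac genes Myh6 and Nppa, and their part in the difference was not tested. The difference between stages itself was not tested.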

How the results depend on the processing

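A limit of 50 CPM gave 453 higher and 470 lower genes against the other E16.5 spots, 393 and 281 against the Krt1 and Krt10 spots and 711 and 456 against P0, since fewer genes were compared. Without a limit there were 2401 lower against the other spots, 2631 higher and 1375 lower against the Krt1 and Krt10 spots and 4036 higher against P0. TMM factors gave 1205 higher and 1553 lower against P0, and the desmosome scale, added after seeing the data, 5750 and 218 of 10480 genes. Against 200 other epithelial spots there were 407 higher and 558 lower. With 1 P0 section left out, 2677 to 2703 genes were higher and 832 to 927 lower than at P0. The DESeq2 Wald test called 1740 genes higher and 1533 lower in the P0 top spots, and the fit with no replicate block 2920 and 2984; a single P0 section leaves no residual degrees of freedom and gives no test. The 30 highest spots formed 13 connected groups and the 120 highest 12. With the 26-spot group alone, chosen after seeing the data, Lce3a turned to -0.91 over the other spots and -0.67 over P0, as it has no UMI there. Of 838 named log2 ratios under alternatives 836 kept their sign and 687 stayed within the counting interval. Most of these genes were named for their extreme ratios, so a kept sign says little. The 1 E16.5 section and the 3-count floor of 2.41 CPM limit what can be seen of genes at or near 0. Causes of the other shifts were not tested.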
